A study of Homo sapiens with 12 samples.

Results

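Pyruvate dehydrogenase is switched off by phosphorylation and on again by dephosphorylation, and the genes described here encode the enzymes that do this together with the subunit they act on. They are the 4 pyruvate dehydrogenase kinases (PDK1, PDK2, PDK3 and PDK4), the catalytic subunits of both pyruvate dehydrogenase phosphatases (PDP1 and PDP2) and PDHA1, the alpha subunit of the E1 enzyme that carries the phosphorylated serines. The 7 genes were chosen by symbol, with earlier results of these data known, and each was matched to 1 Ensembl identifier of the count table. They are 7 of 58233 genes in the table, and all 7 were among the 15749 genes that passed the filter on low counts.

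The pyruvate dehydrogenase complex turns pyruvate from glycolysis into acetyl-CoA inside mitochondria, which lets glucose carbon enter the tricarboxylic acid cycle instead of leaving the cell as lactate. The kinases inactivate the complex by phosphorylating the E1 alpha subunit, and the phosphatases reverse this. PDK4 is known as the kinase most responsive to transcription: fasting, fatty acids acting through PPAR receptors, FOXO factors and glucocorticoids raise it in muscle and liver, and it has been described as a gate of glucose oxidation in mammary epithelial cells that lose contact with matrix. PDK1 is known as a target of the hypoxia factor HIF-1. RNA levels show neither the protein nor the phosphorylation state of the complex.

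The cells were MCF10-A, an established line of non-tumour human mammary epithelial cells, in a study of the integrin made of the alpha 6 and beta 4 chains, a receptor for laminin. The 6 groups were Addback EDTA, Addback NA, B4-4 EDTA, B4-4 NA, Vector EDTA and Vector NA, with 2 libraries each, where Vector, B4-4 and Addback name derivatives of the line and EDTA is a chelator of divalent cations. All 12 libraries came from trypsinized cells held for 3 hours in serum-free medium over poly-HEMA, a coating that keeps cells from attaching, so every comparison is between detached cells and no attached control is among them. What NA stands for, the dose and timing of EDTA, how B4-4 and Addback were made and whether either is a single clone are not given in the labels or in other sources used. Nor is it stated that the libraries of a group came from separate cultures, so the p-values reflect the spread of these samples alone, and that spread may be technical.

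Library totals ran from 15685376 to 22156173 counts. Levels are given as CPM, read counts scaled to the TMM-adjusted size of the library, and differences as log2 fold changes with a standard error (SE). A gene is called changed in a comparison where its adjusted p in edgeR's quasi-likelihood test is under 0.05. ITGB4, which encodes the beta 4 chain, had between 182 and 395 CPM in B4-4, and every other library had at least 1060 CPM. Markers of basal mammary epithelium summed to between 9328 and 15461 CPM, and those of luminal or general epithelium to between 817 and 1471 CPM, with KRT8, KRT18, CDH1 and EPCAM at 97.6 CPM or more and KRT19 at 0.355 CPM or less. The 7 fibroblast markers summed to between 14.1 and 65.5 CPM, highest in Addback EDTA 2. Among them COL1A1 had 9.96 to 24.4 CPM and DCN 0.771 to 51.9 CPM, PDGFRB and LUM reached 4.01 and 4.06 CPM, and COL1A2, COL3A1 and PDGFRA stayed at 0.448 CPM or less. The endothelial sum reached 34.3 CPM, nearly all of it PECAM1. Those of leukocytes, adipocytes and skeletal muscle stayed at 1.46 CPM or less. The replicates of B4-4 NA were at least 2-fold apart in 389 of 10632 genes and those of Addback EDTA in 228, against at most 9 in the other pairs. Between B4-4 NA 1 and B4-4 NA 2 Pearson's r of log2 CPM across the 15749 tested genes, which are not independent replicates, was 0.976, and B4-4 NA 1 had its highest r, 0.981, with Vector NA 2, although its ITGB4 level of 182 CPM was the lowest of all libraries. Whether a label was exchanged was not tested. Addback EDTA 2 carries lane label 7 and the 11 other libraries lane label 8, so the lane cannot be told apart from that single library.

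Promoter windows of 250 bases before to 50 bases after the transcription start were taken from RefSeq (GRCh38.p14), which held 9 windows for 6 of the 7 genes. Those of PDK4 and PDP2 are shown because these genes moved in opposite directions when the EDTA effects of B4-4 and Vector were compared, and because each has 1 window. They run 5′ to 3′ on the strand of the gene, chr7:95596467-95596766 on the minus strand for PDK4 and chr16:66880265-66880564 on the plus strand for PDP2, and capitals mark matches to the motifs searched.

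PDK4: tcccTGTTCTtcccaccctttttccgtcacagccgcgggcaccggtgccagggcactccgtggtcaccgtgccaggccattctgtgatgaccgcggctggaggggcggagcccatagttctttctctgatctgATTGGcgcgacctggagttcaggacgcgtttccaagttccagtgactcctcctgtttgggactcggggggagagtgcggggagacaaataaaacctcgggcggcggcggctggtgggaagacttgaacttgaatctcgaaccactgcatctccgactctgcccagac

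PDP2: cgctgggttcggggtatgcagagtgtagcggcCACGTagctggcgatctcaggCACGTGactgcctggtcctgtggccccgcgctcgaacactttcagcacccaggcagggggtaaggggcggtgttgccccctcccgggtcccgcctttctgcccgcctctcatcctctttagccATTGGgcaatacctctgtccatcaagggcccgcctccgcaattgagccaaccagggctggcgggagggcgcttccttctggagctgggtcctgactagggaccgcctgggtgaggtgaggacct

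The search covered 8 motifs on both strands. The half-site of estrogen-related receptors was spelled AAGGTCA (found in 3.92% of all 35116 RefSeq windows), and the nuclear receptor half-site within it AGGTCA (13.8%). The FOXO core was spelled GTAAACA (3.42%), and its shorter form TAAACA (12.3%). The core of the hypoxia response was spelled ACGTG (21.4%), and the E-box that contains it CACGTG (7.26%). The glucocorticoid receptor half-site was spelled AGAACA (14.8%), and the last motif was CCAAT (34.6%). The PDK4 window held 1 glucocorticoid half-site and 1 CCAAT, and no match to the other motifs. The PDP2 window held 3 matches to ACGTG, with 1 CACGTG overlapping 2 of them, and 1 to CCAAT. A match is a run of letters and not a measured binding site. The PDP2 window follows a RefSeq start site that lies inside the GENCODE gene body, downstream of its first base.

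PDK4 (ENSG00000004799, chromosome 7, 95583499 to 95596491, minus strand, GRCh38) had the widest range of the 7 protein-coding genes. It stood at 358 and 300.3 CPM in the Vector EDTA libraries, against 40.5 and 37.4 CPM in Vector NA. In B4-4 the values were 25.3 and 23.8 CPM with EDTA and 53.8 and 208 CPM in NA. Addback gave 11.2 and 49.4 CPM with EDTA, against 31.2 and 33.3 CPM in NA. Vector EDTA was therefore above every other group, while in B4-4 both EDTA libraries lay below both NA libraries and in Addback the EDTA libraries lay on either side of the NA pair. The replicates differed 4.40-fold in Addback EDTA and 3.87-fold in B4-4 NA. In the other 4 groups they differed by at most 1.19-fold. The summed fibroblast markers were 28.4 and 29.03 CPM in Vector EDTA, against 16.1 and 15.2 CPM in Vector NA, and 14.7 and 14.1 CPM in B4-4 EDTA, against 18.1 and 30.0 CPM in B4-4 NA. In Addback they were 34.7 and 65.5 CPM with EDTA, against 45.9 and 47.1 CPM in NA. Their part in the PDK4 values was not tested.

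**Figure D1:**
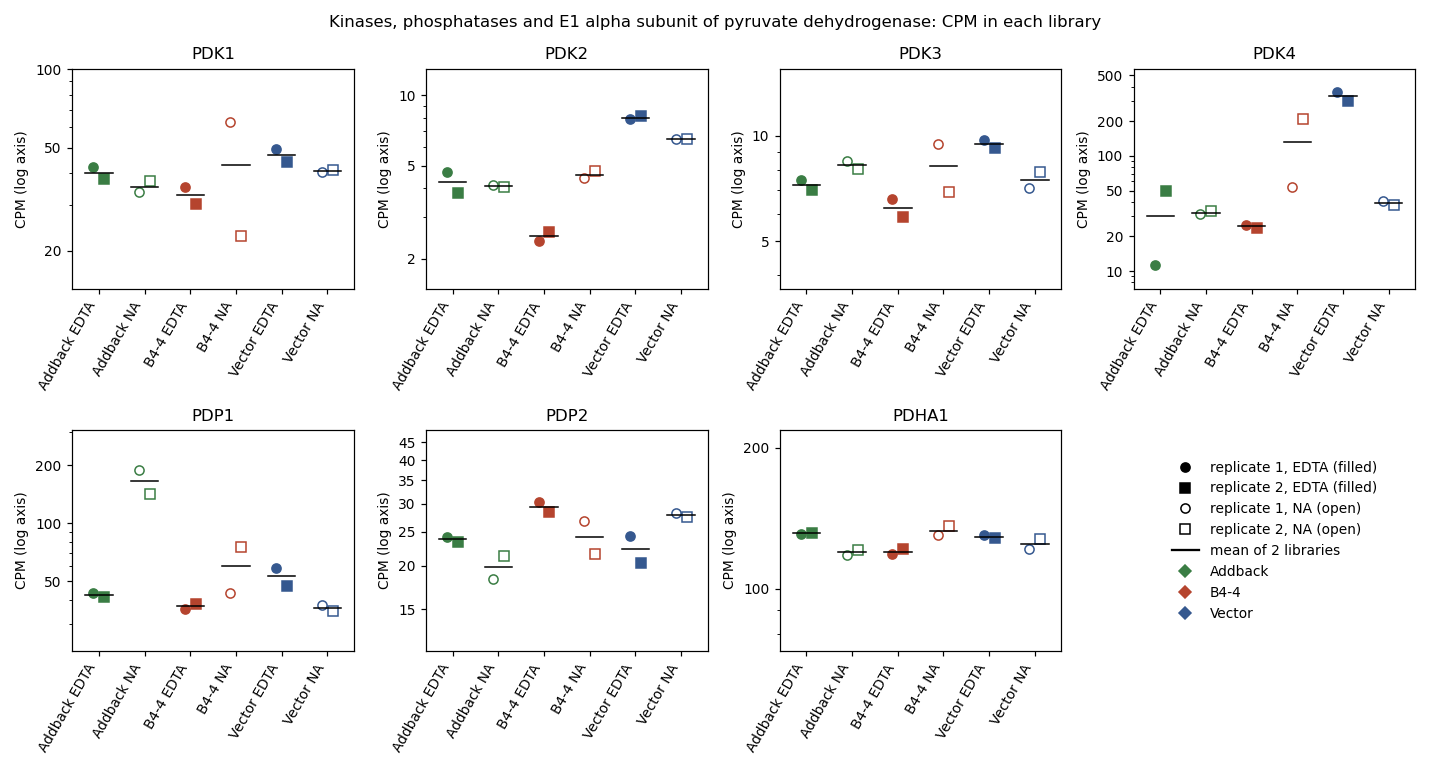
CPM of each of the 7 genes in the 12 libraries on log axes, with 1 panel per gene, 1 point per library (filled for EDTA, open for NA) and a bar at the mean of each pair. PDK4 is highest in Vector EDTA (358 and 300.3 CPM) and PDP1 in Addback NA (190 and 142 CPM), while PDHA1 lies between 118 and 136 CPM throughout.

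With EDTA, PDK4 was lower in both other derivatives than in Vector. Its level was 13.4-fold lower in B4-4 EDTA than in Vector EDTA (log2 fold change −3.75, SE 0.84, adjusted p = 0.0123) and 10.8-fold lower in Addback EDTA than in Vector EDTA (−3.44, SE 0.83, adjusted p = 0.0228), with both libraries of each derivative below both of Vector. In NA neither derivative was called against Vector, with 1.75 (SE 0.78, adjusted p = 0.232) for B4-4 and −0.27 (SE 0.78, adjusted p = 0.816) for Addback, although the Addback and Vector libraries of NA fitted alone gave an adjusted p of 0.00502. Addback was not called against B4-4 in EDTA (0.31, SE 0.80, adjusted p = 0.838) or in NA (−2.02, SE 0.79, adjusted p = 0.118), where the estimate was −2.68 without B4-4 NA 1 (adjusted p = 0.0376) and −0.74 without B4-4 NA 2. The effect of EDTA on PDK4 differed between B4-4 and Vector by −5.49 on the log2 scale (SE 1.14, adjusted p = 0.0155). This difference ran from −6.16 without B4-4 NA 1 to −4.20 without B4-4 NA 2, and it was lost without B4-4 EDTA 1 (0.0675), B4-4 EDTA 2 (0.0689) or either Vector NA library (0.0676 and 0.0705). Between Addback and Vector the EDTA effect on PDK4 differed by −3.17 (SE 1.11, adjusted p = 0.0886), which was −4.60 without Addback EDTA 2 (adjusted p = 0.0339) and −2.45 without Addback EDTA 1, and which was also called without B4-4 NA 1 (0.0402) or B4-4 NA 2 (0.0419).

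Within Vector the PDK4 estimate for EDTA against NA was 8.45-fold (3.08, SE 0.81), and its adjusted p of 0.0509 missed the threshold. The corresponding values were −2.41 (SE 0.81, adjusted p = 0.0835) in B4-4 and −0.09 (SE 0.79, adjusted p = 0.956) in Addback. The spread of PDK4 in this fit is shared by all 6 groups, including the B4-4 NA and Addback EDTA pairs. Without both pairs, an alternative chosen after seeing the data, the Vector difference had an adjusted p of 6.74e-12, and with the Vector libraries fitted alone one of 1.86e-06. DESeq2 gave 0.00102, and leaving out single libraries gave adjusted p-values from 0.0192 to 0.249 around log2 fold changes of 2.97 to 3.19. Both called differences also depended on single libraries: B4-4 against Vector in EDTA had adjusted p = 0.0778 without B4-4 EDTA 1 and 0.0816 without B4-4 EDTA 2, and Addback against Vector had 0.0526 without Addback EDTA 1, 0.0727 without Vector EDTA 1 and 0.0572 without Vector EDTA 2. Addback against Vector was −4.88 without Addback EDTA 2, against −2.73 without Addback EDTA 1, and had an adjusted p of 0.150 with the compared groups fitted alone. In B4-4, EDTA against NA was −3.08 without B4-4 NA 1 (adjusted p = 0.0258) and −1.13 without B4-4 NA 2.

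**Figure D2:**
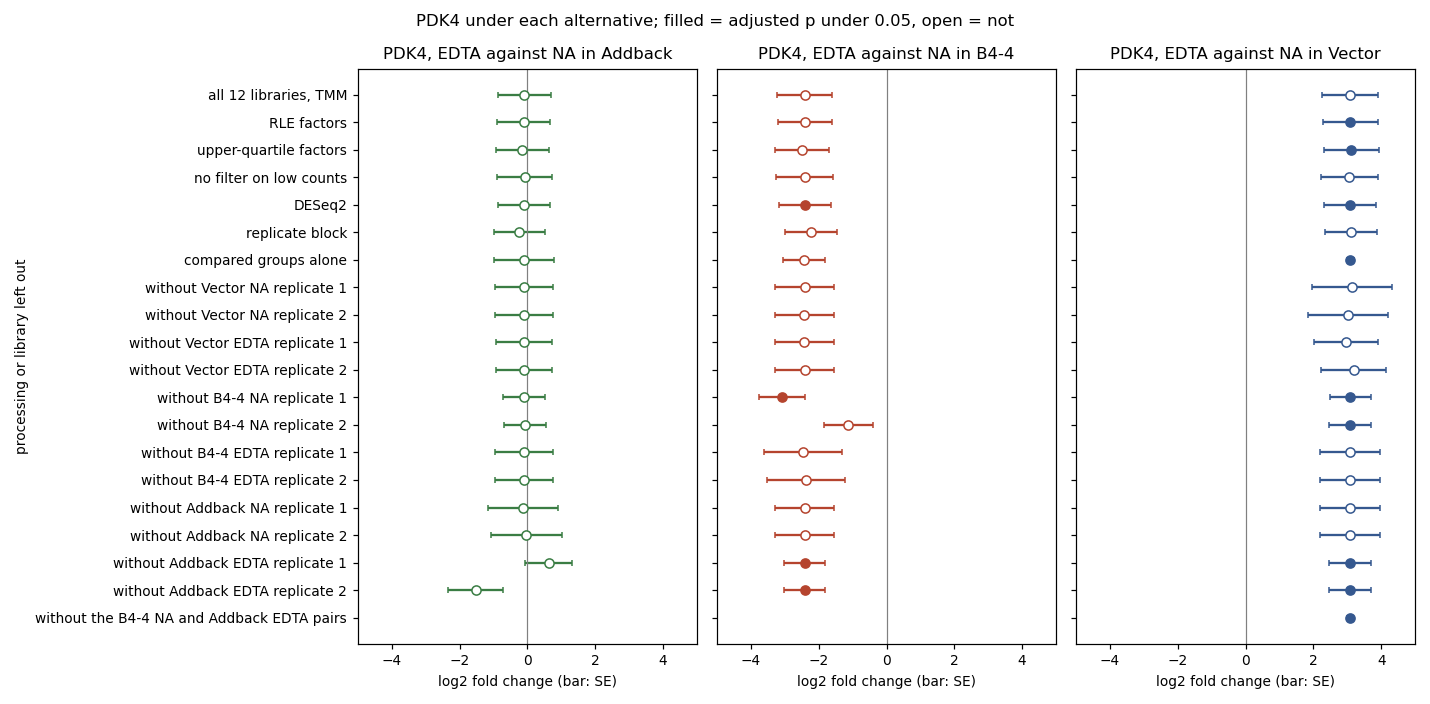
Log2 fold change of PDK4 (x axis) with EDTA against NA in each derivative, for all 12 libraries on the top line and for 1 alternative on each line below, with bars for the SE, filled points for an adjusted p under 0.05 and open points otherwise. The Vector estimates run from 2.97 to 3.19, whereas the B4-4 estimate is −1.13 without B4-4 NA 2 and −3.08 without B4-4 NA 1.

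PDK2 (ENSG00000005882, chromosome 17, 50094737 to 50112152, plus strand), a kinase expressed in most tissues, had 46 to 183 counts per library, and its replicates differed by at most 1.23-fold. Levels were 4.68 and 3.81 CPM in Addback EDTA and 4.14 and 4.06 CPM in Addback NA. They were 2.38 and 2.61 CPM in B4-4 EDTA, against 4.42 and 4.73 CPM in B4-4 NA, and 7.92 and 8.11 CPM in Vector EDTA, against 6.50 and 6.48 CPM in Vector NA. All Vector libraries were thus above all libraries of the other derivatives, and B4-4 EDTA was below every other group. PDK2 was lower in B4-4 than in Vector in EDTA (−1.68, SE 0.19, adjusted p = 3.94e-05) and lower in Addback than in Vector both in EDTA (−0.92, SE 0.18, adjusted p = 0.00301) and in NA (−0.66, SE 0.19, adjusted p = 0.0156). It fell with EDTA in B4-4 (−0.87, SE 0.20, adjusted p = 0.0112), was not called with EDTA in Vector (0.30, SE 0.18, adjusted p = 0.272) and the difference between these effects was called (−1.18, SE 0.27, adjusted p = 0.00708).

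The EDTA difference between B4-4 and Vector, that between Addback and Vector, and the difference of the EDTA effects of B4-4 and Vector kept their calls for PDK2 whichever library was left out. Its fall with EDTA in B4-4 was lost without B4-4 EDTA 1 (adjusted p = 0.107), without B4-4 EDTA 2 (0.0652) and with B4-4 fitted alone (0.0916). Addback against Vector in NA was lost without Addback NA 1 (0.0766) or Addback NA 2 (0.0815), and likewise without Vector NA 1 (0.0922) or its replicate Vector NA 2 (0.0896). In EDTA the Addback level of PDK2 was also above that of B4-4 (0.77, SE 0.20, adjusted p = 0.0248). That call was lost with DESeq2 (0.0531), with no filter (0.0591), with the compared groups alone (0.0872), and without B4-4 EDTA 1 (0.185), B4-4 EDTA 2 (0.113), Addback EDTA 1 (0.136), Vector NA 1 (0.0508) or Vector NA 2 (0.0505). SAMD14, on the opposite strand, shares 2113 bp of exon with PDK2 and had at most 5 counts in any library.

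PDK3 (ENSG00000067992, chromosome X, 24465221 to 24541862, plus strand), an X-linked kinase, ranged from 5.86 to 9.73 CPM. Its values were 6.62 and 5.86 CPM in B4-4 EDTA, against 9.73 and 9.22 CPM in Vector EDTA, and the groups did not overlap. PDK3 was lower in B4-4 than in Vector in EDTA (−0.60, SE 0.18, adjusted p = 0.0182), a call lost without Vector EDTA 1 (0.0736), Vector EDTA 2 (0.0596), B4-4 EDTA 1 (0.0565) or B4-4 EDTA 2 (0.134). No other comparison of PDK3 was called with all libraries. The EDTA effect in B4-4 minus that in Vector was −0.73 (SE 0.26, adjusted p = 0.0532), and it was called with upper-quartile scaling (0.0318) and without B4-4 NA 2 (−0.93, adjusted p = 0.00948). Without that library EDTA against NA in B4-4 was also called, at −0.60 (adjusted p = 0.0358), beside −0.39 (SE 0.19, adjusted p = 0.154) with it.

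PDK1 (ENSG00000152256, chromosome 2, 172555373 to 172608669, plus strand), a gene apart from PDPK1, was called in none of the 12 comparisons. It had 42.1 and 37.7 CPM in Addback EDTA and 33.6 and 37.2 CPM in Addback NA. It had 35.2 and 30.4 CPM in B4-4 EDTA, against 62.9 and 22.9 CPM in B4-4 NA, and 49.2 and 44.1 CPM in Vector EDTA, against 40.1 and 41.0 CPM in Vector NA. The B4-4 NA libraries thus held both the highest and the lowest value, and they were apart in opposite senses for PDK1 and PDK4, with B4-4 NA 1 higher in PDK1 and B4-4 NA 2 higher in PDK4. Every direction of PDK1 that involved B4-4 NA turned on that pair: EDTA against NA in B4-4 was 0.52 without B4-4 NA 1 (adjusted p = 0.0145) and −0.94 without B4-4 NA 2 (adjusted p = 0.000272), beside −0.39 (SE 0.37, adjusted p = 0.489) with both. B4-4 against Vector in EDTA, which uses neither of these libraries, was −0.51 (SE 0.37, adjusted p = 0.294) and was called at −0.52 without B4-4 NA 1 (adjusted p = 0.00117) and at −0.50 without B4-4 NA 2 (adjusted p = 0.00161).

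PDP1 (ENSG00000164951, chromosome 8, 93857807 to 93926066, plus strand), the calcium-stimulated phosphatase, was highest in Addback NA. It had 43.2 and 41.5 CPM in Addback EDTA, against 190 and 142 CPM in Addback NA. B4-4 gave 36.0 and 37.9 CPM with EDTA and 43.6 and 75.6 CPM in NA, and Vector gave 58.8 and 47.4 CPM with EDTA and 37.8 and 34.8 CPM in NA. Both Addback NA libraries were above the 10 others, which lay between 34.8 and 75.6 CPM. PDP1 was 3.92-fold lower with EDTA than in NA in Addback (−1.97, SE 0.23, adjusted p = 0.000515). In NA it was 4.57-fold higher in Addback than in Vector (2.19, SE 0.23, adjusted p = 7.12e-05) and, again in Addback, above its B4-4 level (1.48, SE 0.23, adjusted p = 0.00145). These calls held whichever library was left out.

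With EDTA, PDP1 was called neither in Addback against Vector (−0.33, SE 0.23, adjusted p = 0.304) nor in Addback against B4-4 (0.20, SE 0.23, adjusted p = 0.619). Its EDTA effect was lower in Addback than in Vector (−2.52, SE 0.32, adjusted p = 0.000440), and this held without any single library. It was also below that of B4-4 (−1.28, SE 0.32, adjusted p = 0.0343), and the EDTA effect in B4-4 was below that in Vector (−1.24, SE 0.32, adjusted p = 0.0174). The Addback and B4-4 difference was lost without Vector NA 1 (0.0512), Vector NA 2 (0.0509), B4-4 EDTA 1 (0.0931), B4-4 EDTA 2 (0.101), Addback NA 1 (0.135), Addback EDTA 1 (0.0723) or Addback EDTA 2 (0.078). It was −1.73 without B4-4 NA 2, against −0.94 without B4-4 NA 1. The B4-4 and Vector difference was lost without Vector NA 2 (0.0562), Vector EDTA 1 (0.0565) or B4-4 EDTA 1 (0.0534), and was −0.78 without B4-4 NA 2. Within B4-4 and within Vector the EDTA estimates of PDP1 were −0.69 (SE 0.23, adjusted p = 0.0571) and 0.55 (SE 0.23, adjusted p = 0.132), not called in the main fit and called with no filter on low counts (5.2e-06 and 0.000989). B4-4 against Vector gave −0.52 in EDTA (SE 0.23, adjusted p = 0.0854) and 0.72 in NA (SE 0.23, adjusted p = 0.0852) for PDP1, both called with DESeq2 (0.0334 and 0.0187). The estimate for EDTA in B4-4 was −1.03 without B4-4 NA 1 (adjusted p = 0.000563) and −0.24 without B4-4 NA 2.

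PDP2 (ENSG00000172840, chromosome 16, 66878589 to 66895754, plus strand), the other phosphatase, kept to a narrower range, 18.3 to 30.4 CPM. It had 30.4 and 28.4 CPM in B4-4 EDTA, against 24.2 and 20.3 CPM in Vector EDTA. In Addback NA it had 18.3 and 21.3 CPM, against 28.3 and 27.5 CPM in Vector NA. Neither pair of groups overlapped. PDP2 was higher in B4-4 than in Vector in EDTA (0.40, SE 0.14, adjusted p = 0.0343) and lower in Addback than in Vector in NA (−0.49, SE 0.14, adjusted p = 0.0167). The EDTA effect on PDP2 was higher than that of Vector in B4-4 (0.60, SE 0.20, adjusted p = 0.0397) and in Addback (0.59, SE 0.20, adjusted p = 0.0478).

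All 4 calls of PDP2 were lost when single libraries were left out. B4-4 against Vector in EDTA had adjusted p-values of 0.186 without B4-4 EDTA 1, 0.094 without B4-4 EDTA 2, 0.227 without Vector EDTA 2 and, leaving out a Vector NA library, 0.0622 (number 1) and 0.0623 (number 2), and of 0.0525 with DESeq2 and 0.0761 with upper-quartile scaling. Addback against Vector in NA had 0.145 without Addback NA 1, and 0.103 and 0.0761 with Vector NA 1 or Vector NA 2 left out. The difference between B4-4 and Vector was lost without Vector NA 1 (0.137), Vector NA 2 (0.108), Vector EDTA 2 (0.149), B4-4 NA 2 (0.0781), B4-4 EDTA 1 (0.149), B4-4 EDTA 2 (0.0917), Addback NA 1 (0.0514) or Addback NA 2 (0.0514). That between Addback and Vector was lost without any library other than B4-4 NA 1 or B4-4 NA 2 (adjusted p-values from 0.056 to 0.184 over those 10 libraries). With DESeq2 these differences had adjusted p-values of 0.0502 for B4-4 and 0.0685 for Addback, and with upper-quartile scaling 0.0686 and 0.0731. RLE factors gave 0.0559 for Addback, and the compared groups alone gave 0.0583 for B4-4.

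PDHA1 (ENSG00000131828, chromosome X, 19343893 to 19361705, plus strand), the target of these enzymes, was called in none of the comparisons. Its CPM ran from 118 to 136 over the 12 libraries, and its log2 fold changes and differences of EDTA effects lay between −0.20 and 0.28, each with an SE of at most 0.12. MAP3K15 shares 956 bp of exon with PDHA1 on the opposite strand and had at most 12 counts in any library.

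Counted together, 0 of the 7 genes were called with EDTA in Vector, where 15.3% of all tested genes were, although 3 had an unadjusted p under 0.05 (PDK4, PDP1 and PDP2) and DESeq2 called 1 (PDK4). With EDTA 1 of 7 was called in B4-4 (19.9% of all genes), PDK2, and 1 in Addback (16.9%), PDP1. For B4-4 against Vector the count was 4 of 7 in EDTA (43.4%) and 0 of 7 in NA (7.16%), where 2 genes had an unadjusted p under 0.05 and DESeq2 called 1. Addback against B4-4 gave 1 of 7 in EDTA (14.1%) and 1 in NA (23.6%), and Addback against Vector gave 2 of 7 in EDTA (30.0%) and 3 in NA (36.1%). The EDTA effects differed between B4-4 and Vector in 4 of 7 genes (27.0%), between Addback and B4-4 in 1 (8.78%) and between Addback and Vector in 2 (24.2%). In B4-4 against Vector with EDTA the kinases PDK2, PDK3 and PDK4 were called lower and PDP2 higher. The other phosphatase, PDP1, was at −0.52 there and not called. DESeq2 called 0 of the 7 higher and 4 lower in that comparison, with PDP1 called (adjusted p = 0.0334) and PDP2 not (0.0525). The median over the 7 genes was −0.52 in edgeR, beside 0.00 over all genes tested. No test of the 7 genes as a set was made. Of the 20 calls in 84 results, 7 held without any single library, all of them of PDK2 or PDP1.

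**Figure D3:**
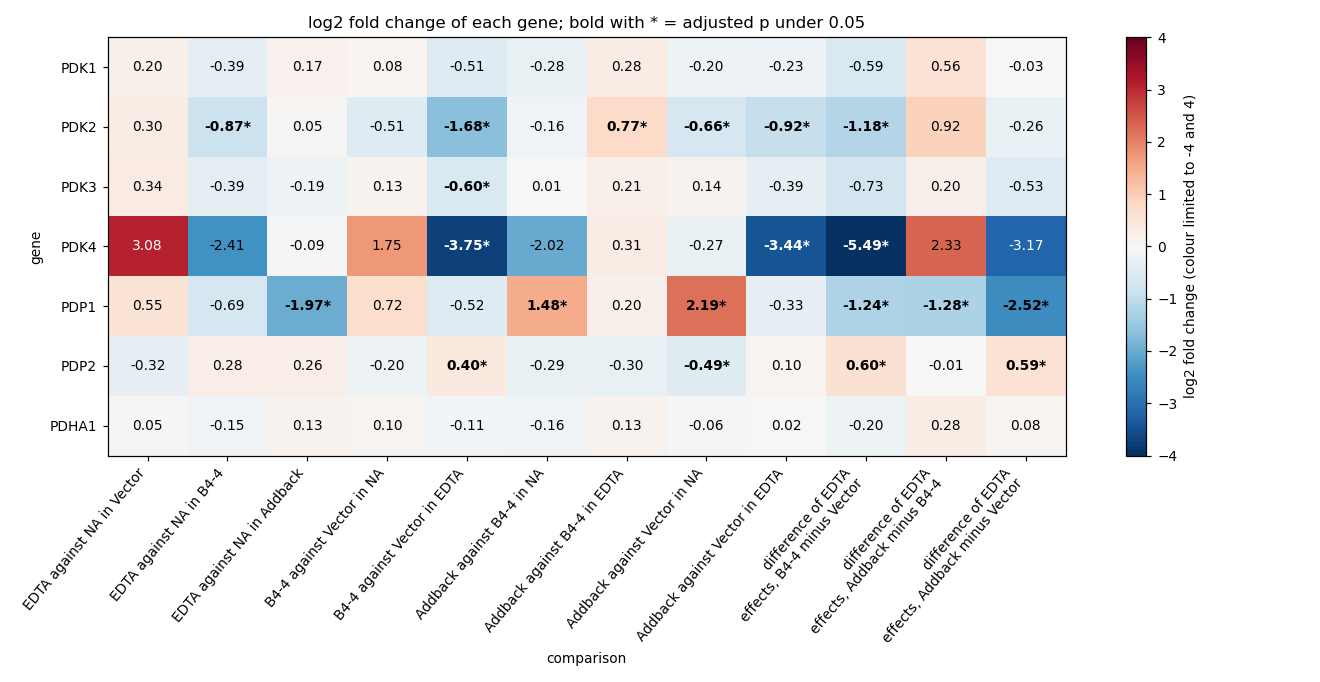
Log2 fold change of the 7 genes in the 12 comparisons, each cell coloured by its value, with called results in bold with an asterisk. B4-4 against Vector in EDTA shows PDK2 (−1.68), PDK3 (−0.60) and PDK4 (−3.75) lower and PDP2 (0.40) higher, with PDP1 at −0.52 and not called. Addback against Vector in NA shows PDP1 higher (2.19).

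To set the genes beside each other, levels were divided by gene length and expressed as TPM, shares of all transcripts after that division, a scale used here for description only. PDK4 made up 92.2% and 91.3% of the summed TPM of the 4 kinases in Vector EDTA, against 62.8% and 59.99% in Vector NA. In B4-4 its share was 57.5% and 58.7% with EDTA, against 63.1% and 92.4% in NA. In Addback it was 32.4% and 70.2% with EDTA, against 59.3% and 60.3% in NA. PDK4 thus had the highest TPM of the kinases in 11 libraries, and PDK1 had in Addback EDTA 1. The shares depend on gene length: with the mean length of coding transcripts in place of the union of exons, chosen after seeing the data, PDK4 held 86.2% and 84.9% in Vector EDTA, against 47.3% and 44.4% in Vector NA.

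The kinases summed to 356 and 294 TPM in Vector EDTA, against 59.7 and 58.1 TPM in Vector NA, while PDHA1 was at 120 and 115 TPM with EDTA and 113 and 119 TPM in NA. The ratio of kinase to phosphatase TPM was 6.42 and 6.68 in Vector EDTA, against 1.41 and 1.46 in Vector NA. It was 0.969 and 0.881 in B4-4 EDTA, against 1.71 and 3.10 in B4-4 NA, and 0.724 and 1.53 in Addback EDTA, against 0.322 and 0.439 in Addback NA. Vector EDTA had the highest ratios and Addback NA the lowest. PDP1 made up 93.9% and 90.9% of phosphatase TPM in Addback NA and between 63.9% and 83.9% in the other libraries. No test was run on these ratios.

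**Figure D4:**
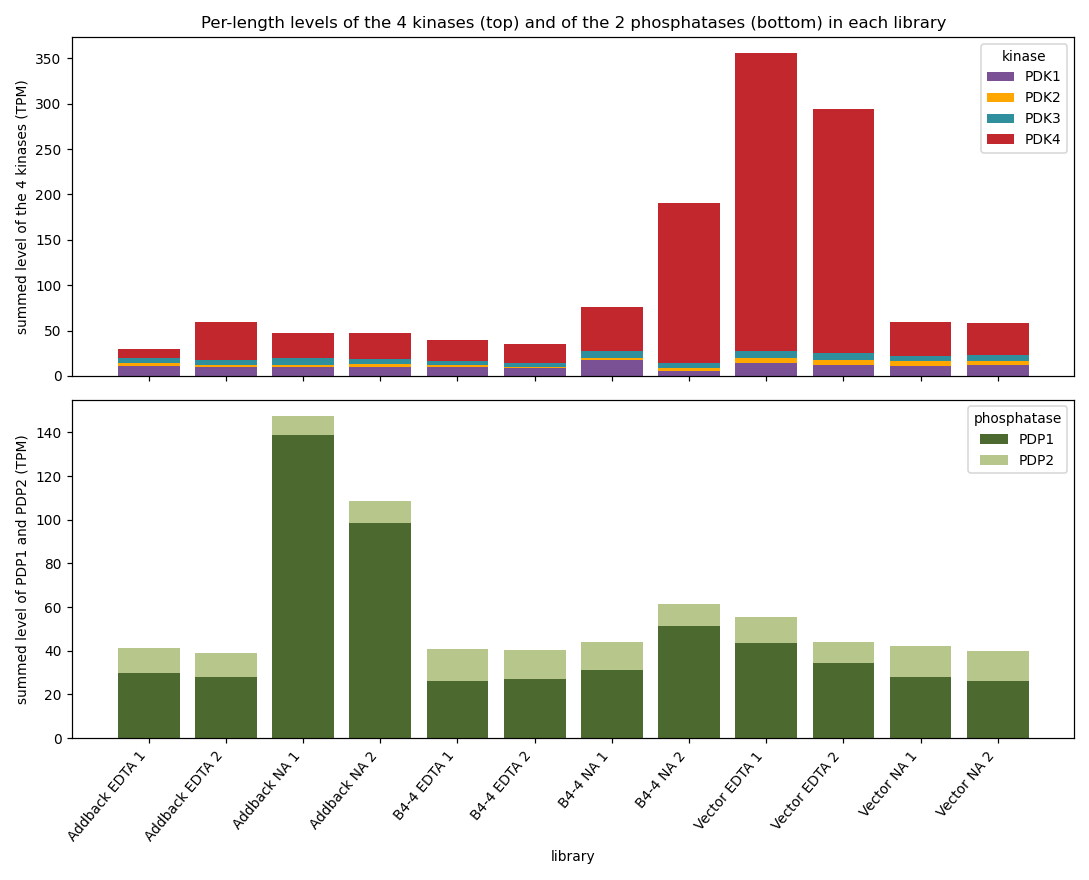
Stacked TPM of the 4 kinases (top) and of PDP1 and PDP2 (bottom) in each of the 12 libraries. PDK4 fills most of the kinase bar in Vector EDTA (92.2% and 91.3%) and in B4-4 NA 2 (92.4%), and PDP1 most of the phosphatase bar in Addback NA.

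Genes whose log2 CPM followed a member most closely over the 12 libraries were listed by Pearson's r among 10533 genes, as a description. The libraries of a group share their treatment and the divergent pairs weigh on every r. For PDK4 they were SERPINI1 (r = 0.936), LEPR (0.928), MSRB2 (0.927), PARD3 (0.916) and PHKB (0.912). LEPR, the leptin receptor, had 44.8 and 30.4 CPM in Vector EDTA, against 20.1 and 19.5 CPM in Vector NA, a smaller step than that of PDK4. The closest genes were INTU (0.945) and SFMBT2 (0.940) for PDK1, MAP2K5 (0.984) and NTPCR (0.980) for PDK2, ADNP2 (0.980) and ACADSB (0.956) for PDK3, TRIM36 (0.964) and ANKRD33B (0.964) for PDP1, WAPL (0.959) and FAM135A (0.954) for PDP2, and OAZ2 (0.939) and ATP5MC3 (0.928) for PDHA1. TRIM36, like PDP1, was highest in Addback NA, at 24.3 and 22.8 CPM, against 7.71 to 12.6 CPM in the other libraries.

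Genes around the members were counted from lists of known roles, to be read beside the shares of all tested genes. With EDTA, 6.36% of all genes were higher and 8.98% lower in Vector, 9.88% higher and 10.0% lower in B4-4, and 8.64% higher and 8.29% lower in Addback. In B4-4 against Vector with EDTA 22.9% were higher and 20.4% lower, and in Addback against Vector in NA 17.9% were higher and 18.1% lower. Among 12 FOXO targets, EDTA against NA gave 5 higher and 0 lower in Vector (median log2 fold change 0.49, beside 0.00 over all genes), 0 higher and 8 lower in B4-4 (median −0.81, beside −0.01) and 0 higher and 3 lower in Addback (median −0.51, beside 0.01). DESeq2 called 6 higher and 1 lower in Vector. Not all of the list rose there. TXNIP had 120 and 119 CPM in Vector EDTA, against 462 and 444 CPM in Vector NA, and was not called by edgeR. KLF6, also not called by edgeR, had 69.8 and 69.2 CPM in Vector EDTA, against 161 CPM in both Vector NA libraries. BCL6, a transcriptional repressor, rose with EDTA in Vector (0.88, SE 0.11, adjusted p = 0.000352) and fell with EDTA in B4-4 (−1.42, SE 0.12, adjusted p = 2.9e-05). CDKN1B, an inhibitor of cyclin-dependent kinases, did the same, at 1.10 (SE 0.15, adjusted p = 0.000618) in Vector and −0.999 (SE 0.15, adjusted p = 0.00135) in B4-4. IRS2, an adaptor of the insulin receptor, rose with EDTA in Vector (1.43, SE 0.19, adjusted p = 0.000686) and fell in Addback (−1.22, SE 0.19, adjusted p = 0.00185). CCNG2, an unconventional cyclin, fell in Addback (−1.61, SE 0.15, adjusted p = 7.45e-05). In B4-4 against Vector with EDTA 1 of the 12 was higher and 9 were lower, with a median of −1.24. Addback against Vector with EDTA gave 0 higher and 5 lower, with a median of −0.58, where 30.0% of all tested genes were called. The counts in Vector ran from 3 higher without Vector NA 1 to 7 without Addback EDTA 1, those lower in B4-4 from 3 without B4-4 EDTA 1 to 9 without Addback EDTA 1, and those lower in Addback from 2 without Addback NA 1 to 7 without B4-4 NA 2.

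Of 9 glucocorticoid-induced genes, 0 were called with EDTA in Vector by edgeR or DESeq2, and 0 had an unadjusted p under 0.05. In B4-4, 5 fell with EDTA (median −0.99) and 0 rose, and in B4-4 against Vector with EDTA 6 were lower (median −1.32) and 0 higher. Addback against Vector with EDTA likewise gave 6 lower (median −1.15) and 0 higher, where 30.0% of all tested genes were called. TSC22D3, a leucine zipper protein, had 13.5 and 15.71 CPM in B4-4 EDTA, against 167 and 181 CPM in Vector EDTA (−3.58, SE 0.31, adjusted p = 4.2e-05). FKBP5, a co-chaperone of the receptor, was lower in B4-4 EDTA than in Vector EDTA (−1.14, SE 0.12, adjusted p = 2.04e-05), and so was ZBTB16 (−2.42, SE 0.25, adjusted p = 2.43e-05). KLF9 fell with EDTA in Addback (−1.78, SE 0.22, adjusted p = 0.000508), where 1 of the 9 fell and 1 rose, and where the falls became 3 without B4-4 NA 1. Those called lower with EDTA in B4-4 ranged from 3 without B4-4 EDTA 1 to 8 without B4-4 NA 2, and the 0 called higher in Vector became 3 without B4-4 NA 1.

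Among 12 transcription factors linked to PDK4 in other tissues, EDTA against NA gave 2 higher and 1 lower in Vector, 1 higher and 5 lower in B4-4 and 1 higher and 2 lower in Addback. PPARA, the fatty acid receptor, rose with EDTA in Vector (0.61, SE 0.13, adjusted p = 0.0071) and fell with EDTA in B4-4 (−0.83, SE 0.13, adjusted p = 0.00175). PPARD went the other way, with −0.56 (SE 0.10, adjusted p = 0.00276) in Vector and 0.48 (SE 0.10, adjusted p = 0.00594) in B4-4. NR3C1, the glucocorticoid receptor, was higher in Addback NA (397 and 376 CPM) than in Vector NA (185 and 180 CPM), a difference of 1.08 (SE 0.11, adjusted p = 2.6e-05). PPARGC1A, a coactivator, reached 2.36 and 1.64 CPM in Vector EDTA, against 0.28 and 0.257 CPM in Vector NA. It had similar levels in Addback NA, at 1.90 and 2.38 CPM, the latter its highest value, and was called higher there than in Vector NA. Those called lower in B4-4 ranged from 1 without B4-4 EDTA 1 to 5 without B4-4 NA 2. Those higher in Vector ranged from 1 without Vector NA 1 to 4 without B4-4 NA 1, and those higher in Addback from 0 without Vector NA 1 to 4 without B4-4 NA 2.

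ANGPTL4, a secreted inhibitor of lipoprotein lipase, is known as a PPAR target, as PDK4 is. It had 47.0 and 54.0 CPM in Vector EDTA, against 116 CPM in both Vector NA libraries, a fall with EDTA (−1.20, SE 0.31, adjusted p = 0.0365). It rose with EDTA in B4-4 (1.69, SE 0.31, adjusted p = 0.00883) and in Addback (3.04, SE 0.34, adjusted p = 0.000919). Of the 12 tested genes of fatty acid oxidation and PPAR targets, 0 were higher and 9 lower in Addback against Vector in NA (median −0.44, beside 0.01 over all genes), among them ACADVL (−0.72, SE 0.10, adjusted p = 0.000243) and HADHB (−0.38, SE 0.09, adjusted p = 0.00635), enzymes of beta-oxidation. The count of 9 was 4 without Vector NA 2. ACADL and PLIN2 did not pass the filter on low counts. ACAA2, the thiolase of the pathway, rose with EDTA in Vector (0.42, SE 0.10, adjusted p = 0.0132). Neither this call nor that of the ANGPTL4 fall in Vector was kept without Vector NA 1. The call of the ANGPTL4 rise in B4-4 was lost without B4-4 EDTA 1.

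**Figure D5:**
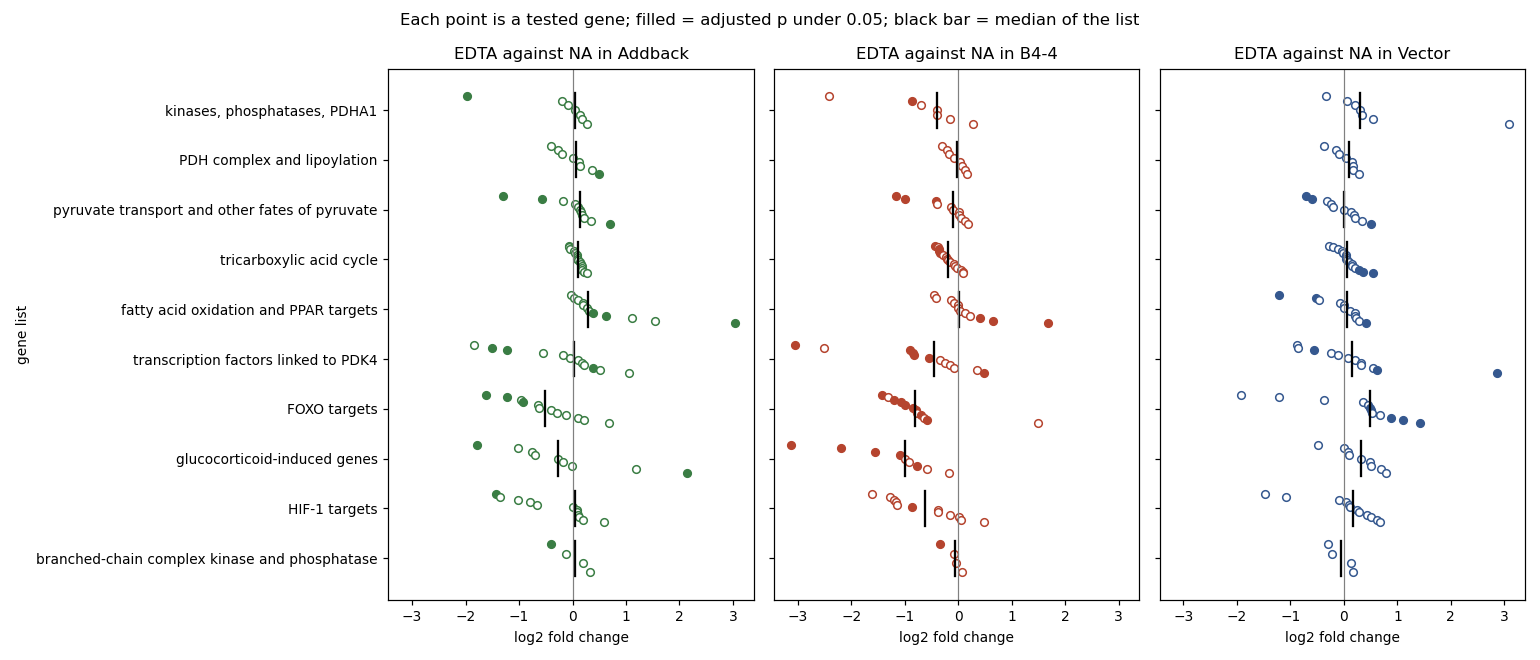
Log2 fold change with EDTA against NA in the 3 derivatives (x axis) for each tested gene of the lists (rows), with filled points for an adjusted p under 0.05 and a black bar at the median of the list. The median of the FOXO targets is 0.49 in Vector, −0.81 in B4-4 and −0.51 in Addback.

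Of 8 genes for the other subunits of the complex, for the regulatory subunit of the phosphatase and for lipoylation, 0 were called with EDTA in Vector or in B4-4 by edgeR or DESeq2, with 0 at an unadjusted p under 0.05, and 1 was higher in Addback, the lipoate synthase LIAS (0.49, SE 0.15, adjusted p = 0.0435). DESeq2 called 0 of the 8 in Addback, and the count of 1 became 0 without Vector NA 1 and 2 without B4-4 NA 1. In B4-4 against Vector with EDTA 3 were lower: LIAS (−0.49, SE 0.14, adjusted p = 0.0169), PDHX, the E3-binding protein (−0.40, SE 0.10, adjusted p = 0.00535), and PDPR, the regulatory subunit of the phosphatase (−0.43, SE 0.13, adjusted p = 0.0145). That count was 1 without Vector EDTA 2. DLAT, the E2 core, was not called there (0.30, SE 0.13, adjusted p = 0.0744). BCKDK, the kinase of the related branched-chain complex, was called with EDTA in no derivative. Its counterpart PPM1K was lower in Addback than in Vector in NA (−0.81, SE 0.17, adjusted p = 0.00334).

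Of 11 genes of pyruvate transport and other fates of pyruvate, 2 were higher and 4 lower in B4-4 against Vector with EDTA, where 43.4% of all tested genes were called. PC, which carboxylates pyruvate to oxaloacetate, had 37.7 and 40.9 CPM in B4-4 EDTA, against 105 and 115 CPM in Vector EDTA (−1.49, SE 0.16, adjusted p = 2.54e-05). MPC2, a subunit of the mitochondrial pyruvate carrier, was lower (−0.59, SE 0.10, adjusted p = 0.00076), and PCK2 was lower as well (−2.18, SE 0.25, adjusted p = 0.00012). GPT2, a transaminase of pyruvate, fell with EDTA in Vector (−0.70, SE 0.17, adjusted p = 0.0165), a call lost without Vector NA 1. In B4-4 against Vector with EDTA the 4 called lower ranged from 3 without Vector EDTA 1 to 6 without B4-4 NA 1 and the 2 called higher became 0 without Vector EDTA 1. In that comparison, of 16 genes of the tricarboxylic acid cycle, 0 were higher and 7 lower (median −0.23, beside 0.00), among them SUCLG1 (−0.67, SE 0.09, adjusted p = 0.000122), SUCLG2 (−0.63, SE 0.10, adjusted p = 0.000567) and FH (−0.48, SE 0.09, adjusted p = 0.00085).

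Of 12 HIF-1 targets, 0 were called with EDTA in Vector by edgeR, with 1 at an unadjusted p under 0.05 and 1 called by DESeq2. In B4-4 1 fell, the histone demethylase KDM3A (−0.86, SE 0.25, adjusted p = 0.0362), a call lost without Vector NA 1. These counts turned on the B4-4 NA pair: 6 were called higher with EDTA in B4-4 without B4-4 NA 1 and 8 lower without B4-4 NA 2. PFKFB4, a regulator of glycolysis, had 14.9 and 15.1 CPM in B4-4 EDTA, against 52.5 and 13.9 CPM in B4-4 NA, where B4-4 NA 1 was the higher library as it was for PDK1.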

How the data were processed

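Per the labels' protocols, 250 ng of total RNA gave stranded polyA libraries (300 bp inserts), read as 150 bp pairs, for each of the 12 samples. The authors deposited raw counts per Ensembl gene. The submitters' processing notes name TopHat2 2.1.1, SAMtools 1.4.1 and featureCounts 1.5.3, and the builds GRCh38, hg19 and hg38 without a role for each; a strand setting is not given there, so antisense reads cannot be told apart from those of a gene. Symbols, lengths and positions come from GENCODE 29 (GRCh38). In R 4.3.3, edgeR 4.0.16 removed low counts with filterByExpr over the groups, scaled libraries with TMM factors and fitted 6 group means to the 12 libraries together (quasi-likelihood, robust). The 12 contrasts, Benjamini-Hochberg adjusted over the 15749 genes tested, had a threshold of 0.05. SEs are the fold change over the square root of F. Other fits used RLE or upper-quartile factors, DESeq2 1.42.0, no filter, the compared groups alone, a block for the replicate number, or left out libraries.

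The members and gene lists were chosen with earlier results of these data known. Named are the 7 members, ITGB4, BCKDK, PPM1K, up to 4 genes per list with the smallest adjusted p, and the genes with the highest r to a member at a mean of at least 5 CPM (5 for PDK4, 2 for others; log2 CPM, prior count 2). Some genes that this rule names are not reported here. On counts simulated for EDTA against NA in Vector over 15261 genes, the test recovered 64% of 2-fold and 98% of 8-fold changes, and 7 of 133 calls were false. The simulation gave a gene the same spread in every group. It therefore does not describe genes, such as PDK4, whose spread is concentrated in the B4-4 NA and Addback EDTA pairs.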

Additional observations from a re-analysis of the deposited data

Results flagged for a closer look

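The values below were picked out because the effect of EDTA differed between derivatives by a direct test. Between B4-4 and Vector the EDTA effect differed for PDK4 by −5.49 on the log2 scale (SE 1.14, adjusted p = 0.0155), with −2.41 in B4-4 and 3.08 in Vector. It differed for PDK2 by −1.18, for PDP1 by −1.24 and for PDP2 by 0.60. Between Addback and B4-4 it differed for PDP1 by −1.28, and between Addback and Vector for PDP1 by −2.52 and for PDP2 by 0.59. Of these 7 differences, those of PDK2 between B4-4 and Vector and of PDP1 between Addback and Vector kept an adjusted p under 0.05 whichever library was left out. That of PDK4 was −6.16 without B4-4 NA 1 and −4.20 without B4-4 NA 2, and its adjusted p was 0.0675 without B4-4 EDTA 1, 0.0689 without B4-4 EDTA 2, and 0.0676 and 0.0705 with Vector NA 1 or Vector NA 2 left out. B4-4 NA 1 and B4-4 NA 2 lay apart in PDK4 (53.8 and 208 CPM), PDK1 (62.9 and 22.9 CPM) and PDP1 (43.6 and 75.6 CPM).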

How the results depend on the processing

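Among 84 results of the members, the calls were the same in 82 with RLE factors, 78 with upper-quartile factors, 79 with no filter, 73 with DESeq2, 83 with a replicate block and 73 with the compared groups alone. Same-numbered libraries deviated together with correlations from −0.170 to 0.305 over the 15 pairs of groups, highest between Vector EDTA and B4-4 EDTA. Whether they share more than a number cannot be told from these values. The replicate block moved no count of genes by over 1.5 times and ended 1 call of a member, PDP1 in the difference of EDTA effects between Addback and B4-4 (−1.28, adjusted p = 0.0544), which the compared groups alone ended too (0.0781). PDK4 calls gained with DESeq2 were EDTA against NA in Vector (0.00102) and in B4-4 (0.0133), Addback against B4-4 in NA (0.0434) and the difference between Addback and Vector (0.0187). Without B4-4 NA 1 the PDK1 estimates turned to 0.52 for EDTA against NA in B4-4, −0.83 for B4-4 against Vector in NA and 0.64 for Addback against B4-4 in NA, and without B4-4 NA 2 they were −0.94, 0.63 and −0.84; the cause was not tested.

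Genes called with EDTA against NA numbered 2416 in Vector, 3138 in B4-4 and 2666 in Addback, and 724 to 4020, 726 to 4549 and 615 to 4319 when single libraries were left out. For B4-4 against Vector they were 6831 in EDTA (4383 to 8169) and 1128 in NA (81 to 3319). For Addback against B4-4 they were 2217 in EDTA (692 to 3756) and 3723 in NA (1324 to 4680). For Addback against Vector they were 4728 in EDTA (2718 to 6216) and 5681 in NA (3137 to 7269). The differences of EDTA effects gave 4249 for B4-4 and Vector (2364 to 5515), 1383 for Addback and B4-4 (403 to 2994) and 3818 for Addback and Vector (2138 to 5346). With no filter, B4-4 against Vector in NA gave 1874 and the difference of Addback and B4-4 gave 2103. With the compared groups alone, EDTA against NA gave 4672 in Vector and 291 in B4-4, B4-4 against Vector in NA 6, Addback against B4-4 in NA 1290, Addback against Vector in NA 9318 and the difference of Addback and B4-4 641. Without the B4-4 NA and Addback EDTA pairs, an alternative chosen after seeing the data, EDTA against NA in Vector gave 5653. With upper-quartile factors 36.8% of calls were higher with EDTA in B4-4 (49.6% with TMM), and 42.0% in the difference of B4-4 and Vector (53.4%). The shared spread includes both divergent pairs, and 2 libraries per group limit all estimates. In the simulation 23% of 1.5-fold changes were recovered for EDTA in Vector and 10% for the difference of B4-4 and Vector. Smaller differences may therefore pass unseen with 2 libraries per group and this spread.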
